A study of Mus musculus with 26 samples.

Results

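The glucocorticoid receptor gene Nr3c1 and 4 classic targets of the receptor, Tsc22d3, Sgk1, Txnip and Fkbp5, were followed in mouse S49 cells, a T lymphoma line, while cyclic AMP (cAMP) signalling was switched on. The genes were taken by name, as every probe set whose platform annotation gives 1 of these 5 symbols alone. The 5 symbols were chosen with earlier results of these data known. This gave 11 probe sets of the 22626 on the array that are not controls, and all 11 passed the filter on dim values. Each gene is described by its brightest probe set, as 5 of 7435 genes tested, and the other 6 probe sets are given beside it. Wild-type (WT) S49 cells and D-, a variant known as deathless because it survives raised cAMP, were each profiled untreated (4 arrays per line) and after 2, 6 or 24 h of 8-CPT-cAMP (3 arrays per group), 26 arrays in all. 8-CPT-cAMP enters cells and mimics cAMP, the messenger through which protein kinase A is switched on. The labelled dose is 100 mM, a unit that may be an error, and it was the same in every treated group. The labels name no glucocorticoid. They give a medium with heat-inactivated horse serum, and the culture text names D- alone for samples of both lines. The titles of the treated WT samples say untreated beside a time, whereas their other labels give the treatment, and the latter were followed. The replicates are called biological, but no separate cultures are described, so each p-value reflects the spread among these samples, which may be technical.

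The glucocorticoid receptor is a nuclear receptor that waits in the cytoplasm in a complex with the chaperone Hsp90. On binding hormone it moves to the nucleus, where it binds glucocorticoid response elements and raises or lowers transcription of its targets. In immature T cells and T lymphoma lines, glucocorticoids are known to cause death, and S49 is a classic line for the study of both glucocorticoid and cAMP killing. Of the targets, Tsc22d3 encodes GILZ, a leucine zipper protein that mediates anti-inflammatory effects of glucocorticoids. Sgk1 encodes serum- and glucocorticoid-regulated kinase 1, Txnip encodes an arrestin-family inhibitor of thioredoxin, and Fkbp5 encodes FKBP51, an Hsp90 co-chaperone that lowers the receptor's affinity for hormone.

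Promoter windows show where letters of the receptor's element, or of other motifs, lie near the start sites. The RefSeq windows (build GRCm38.p6) run from 250 bases before to 50 after a start, 300 bases in all, and 11 of them belonged to 4 of the genes: 3 to Tsc22d3, 6 to Sgk1 and 1 each to Fkbp5 and Txnip. Both strands were searched for 6 motifs: the glucocorticoid response element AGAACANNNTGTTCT and its single arm AGAACA, the cAMP response element TGACGTCA and its short form TGACG, the FoxO site GTAAACA and the E-box CACGTG. A full element holds its own arms or short form, so those matches overlap. The 4 windows printed here, 1 for each gene, each hold a match to at least 1 of the 6 motifs, with the matched letters in capitals, written 5′ to 3′ on the gene's strand.
Sgk1, chr10:21993640-21993939, plus strand: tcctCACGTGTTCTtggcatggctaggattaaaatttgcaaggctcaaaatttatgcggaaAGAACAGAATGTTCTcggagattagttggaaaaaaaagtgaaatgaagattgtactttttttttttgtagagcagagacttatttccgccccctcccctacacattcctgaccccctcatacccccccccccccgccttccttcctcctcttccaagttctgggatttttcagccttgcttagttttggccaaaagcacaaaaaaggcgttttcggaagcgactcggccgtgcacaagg
Tsc22d3, chrX:140548522-140548821, minus strand: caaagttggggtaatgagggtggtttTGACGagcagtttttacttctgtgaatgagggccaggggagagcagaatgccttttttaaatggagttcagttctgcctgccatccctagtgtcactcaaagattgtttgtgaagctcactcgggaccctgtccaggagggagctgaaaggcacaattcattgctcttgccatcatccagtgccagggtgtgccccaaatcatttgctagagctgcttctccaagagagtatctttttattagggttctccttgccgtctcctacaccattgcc
Txnip, chr3:96557707-96558006, plus strand: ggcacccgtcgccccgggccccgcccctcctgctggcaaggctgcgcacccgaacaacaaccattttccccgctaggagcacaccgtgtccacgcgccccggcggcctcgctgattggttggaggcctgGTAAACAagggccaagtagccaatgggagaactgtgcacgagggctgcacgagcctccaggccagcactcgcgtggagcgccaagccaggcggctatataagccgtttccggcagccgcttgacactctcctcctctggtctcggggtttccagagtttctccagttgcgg
Fkbp5, chr17:28486100-28486399, minus strand: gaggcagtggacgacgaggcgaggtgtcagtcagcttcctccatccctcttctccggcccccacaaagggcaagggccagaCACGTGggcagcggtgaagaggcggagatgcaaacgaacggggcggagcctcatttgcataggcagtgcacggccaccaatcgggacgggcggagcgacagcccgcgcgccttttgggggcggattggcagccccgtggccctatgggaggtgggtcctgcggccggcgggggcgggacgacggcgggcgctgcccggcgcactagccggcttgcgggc
The Sgk1 window held the full response element, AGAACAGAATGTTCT, with its first base at -189 from the start, together with another arm at -242 and an E-box at -246. Only 3 of the 32851 windows of the table, 0.00913%, held that exact 15-base element, while its single arm stood in 19.0%. The Tsc22d3 window held the short cAMP form at -224, a motif of 20.8% of windows, and another Sgk1 window held one at -236. The Txnip window held a FoxO site at -121, found in 3.65% of windows. In the Fkbp5 window an E-box lay at -169, and 7.15% of windows held one. Single arms also stood in a Tsc22d3 window, at -185, and in a pair of Sgk1 windows, at -195 and -13. The full cAMP element, found in 1.79% of windows, was in none of the 11. These are matches of letters within the windows, and binding was not measured.

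Before the results, the arrays themselves. The arrays of a group correlated at 0.972 to 0.995, yet deviations from the group means fell into 2 clusters, split by the sign of an axis that carried 38.8% of that variance. One cluster holds 10 arrays (replicates 1 and 2 of each untreated group and replicate 1 of each treated group) and the other 16, so every group spans both. The clusters were read from these same arrays, so fits that split or block by them tend to a smaller spread by construction. Their p-values are read as a description. The smaller cluster holds 1 array of each treated group, so changes within it are given as effect sizes alone. Gapdh 3′ minus 5′ probe sets, a log2 measure that follows RNA integrity, averaged -0.146 ± 0.058 (SD, n = 10) in the first and 0.018 ± 0.094 (n = 16) in the second. T cell markers were measured for 8 of 9 genes, with a summed level of 13.5 to 14.9 (log2). Cd3e, Cd3d, Cd3g and Thy1 had group means of 9.98 or more throughout. Cd247 lay under log2 5 on 11 arrays, Cd2 on 3 and Ptcra on 2, and Rag1 group means ran from 6.13 to 11.93. Among markers of other blood and stromal cells, 3 of 5 B cell, 3 of 6 myeloid, 2 of 3 erythroid and 4 of 5 stromal ones lay under log2 5 on all 26 arrays. The stromal exception was Vim. Of the other exceptions, the myeloid marker Csf1r lay under log2 5 on 0 arrays, erythroid Klf1 on 1 and B cell Cd79a on 3. B cell Blnk did so on 24, and myeloid Elane and Itgam on 21 and 20, with Itgam group means of up to 6.24. Values are log2 of intensity throughout, changes are differences of group means given ± limma's standard error, and a gene is called where its adjusted p, over all 12724 probe sets tested, is under 0.05. RNA came from whole cultures, so fewer cells and less RNA per cell cannot be told apart.

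The receptor and 3 of its targets rose during cAMP treatment in both lines, each with its own time course, while Fkbp5 fell. In WT, 3 of the 5 genes were called at 2 h (2 higher, 1 lower), 4 at 6 h (3 higher, 1 lower) and all 5 at 24 h (4 higher, 1 lower). In D-, the numbers were 3 (2 higher, 1 lower), 4 (3 higher, 1 lower) and 4, all higher. Calls were common on these arrays. Of the 7435 genes, 25.1% were called in WT at 2 h (11.2% higher, 13.9% lower), 38.2% at 6 h (19.1% each way) and 53.8% at 24 h (26.4% higher, 27.5% lower). In D- the shares were 22.3% at 2 h (9.05% higher, 13.2% lower), 31.8% at 6 h (16.2% and 15.6%) and 34.7% at 24 h (17.1% and 17.6%). The median change of the 5 genes was 0.78, 0.90 and 1.33 in WT and 0.63, 0.88 and 1.47 in D-. Over all genes the medians lay between -0.021 and 0.00022, as arrays equalised by GCRMA would give. The 5 genes were chosen with earlier results known, so the contrast of these medians is a description. Since so many genes were called, above all at 24 h, the count of the 5 is read beside these shares, and the sizes and time courses carry the description.

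**Figure D1:**
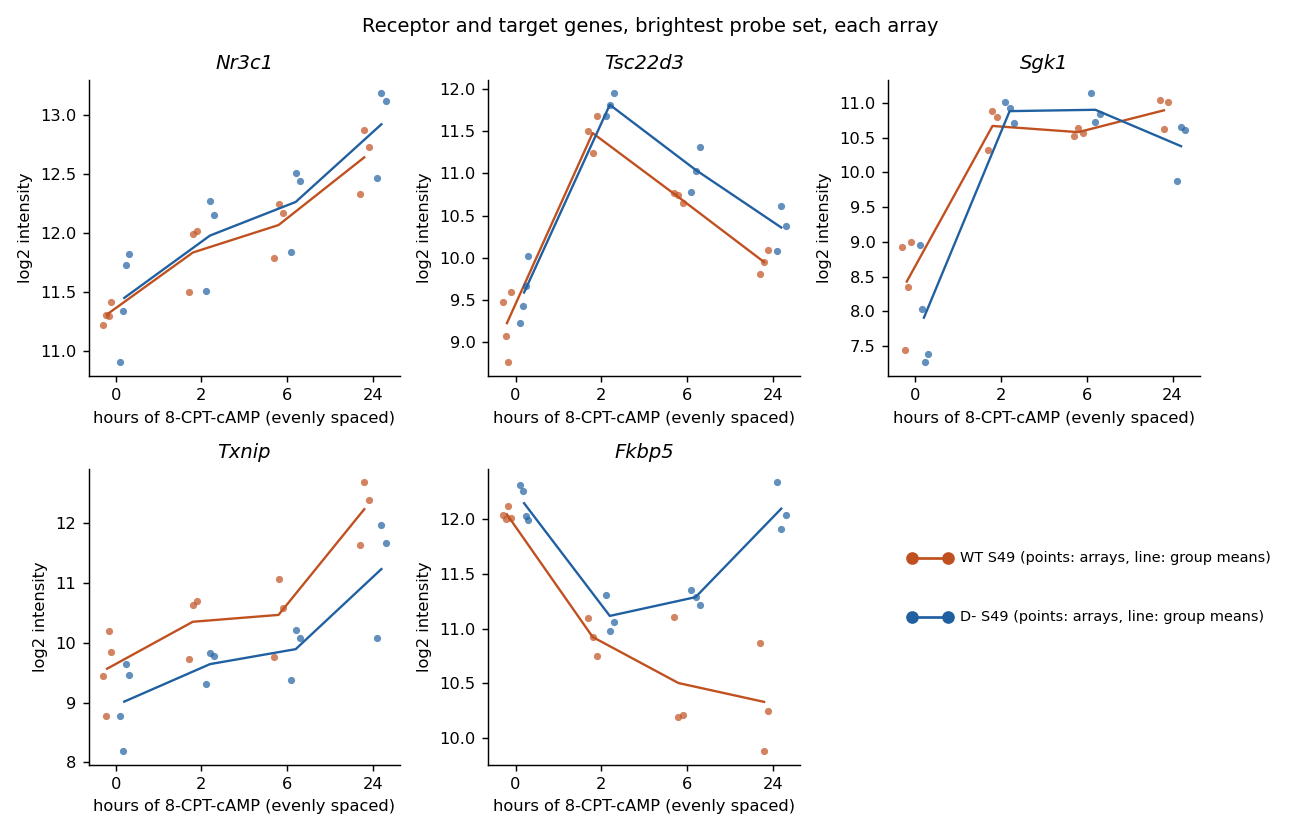
Log2 intensity of each gene's brightest probe set (vertical axis) by hours of 8-CPT-cAMP (horizontal axis, times evenly spaced), with 1 point per array and lines through the group means of WT (orange) and D- (blue). Tsc22d3 peaks at 2 h, Sgk1 stays high from 2 h, Nr3c1 climbs to 24 h, Txnip is highest at 24 h, and Fkbp5 at 24 h lies between 9.88 and 10.87 in WT and between 11.91 and 12.34 in D-.

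Nr3c1, the receptor itself, rose stepwise in both lines, to 2.52-fold in WT and 2.77-fold in D- at 24 h. The untreated WT arrays read 11.22, 11.31, 11.30 and 11.41, followed by 11.50, 11.99 and 12.01 at 2 h, 11.79, 12.25 and 12.17 at 6 h, and 12.33, 12.87 and 12.73 at 24 h. Every treated WT array thus lay above every untreated one. For D- the untreated arrays read 10.90, 11.34, 11.73 and 11.82, and the treated ones 11.51, 12.27 and 12.15 at 2 h, 11.84, 12.51 and 12.44 at 6 h, and 12.46, 13.18 and 13.12 at 24 h. Here the 2 h arrays overlapped the untreated ones and the 6 h arrays cleared them narrowly. In WT the change was 0.52 ± 0.24 at 2 h (adjusted p = 0.116), 0.76 ± 0.24 at 6 h (0.0149) and 1.33 ± 0.24 at 24 h (5.74e-05). The D- changes were 0.53 ± 0.24 (0.124), 0.81 ± 0.24 (0.0113) and 1.47 ± 0.24 (4.81e-05). The rise went on after 2 h: the 24 h level stood above the 2 h level by 0.81 ± 0.25 in WT (adjusted p = 0.0109) and by 0.94 ± 0.25 in D- (0.00581), steps for which 49.7% and 35.1% of genes were called.

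In each treated group the lowest Nr3c1 array was replicate 1, the array of the smaller cluster. Deviations of Nr3c1 from the group means averaged -0.30 ± 0.18 (SD, n = 10) in that cluster and 0.19 ± 0.09 (n = 16) in the other. Within the larger cluster, the 2 h rise was 0.65 ± 0.10 in WT (adjusted p = 0.000444) and 0.44 ± 0.10 in D- (0.00721), and untreated D- lay above untreated WT by 0.42 ± 0.10 (0.0221). The smaller cluster, with 1 array of each treated group, gave 0.24 and 0.39 for the 2 h rises and -0.14 for the untreated difference. As the clusters come from these same arrays, the p-values within the larger one are a description. With the replicate number as a block in limma, the 2 h rise was called in WT (0.60 ± 0.12, adjusted p = 0.000893) and in D- (0.61 ± 0.12, 0.000956). The 6 h call of WT was lost without replicate 2 (adjusted p = 0.0719) or 3 (0.0579) of that group, and that of D- without replicate 2 (0.0697) or 3 (0.0587) of its own. The 2 other probe sets of Nr3c1 were called at 2 h in both lines. 1421867_at rose by 0.79 ± 0.24 in WT (adjusted p = 0.0195) and 0.78 ± 0.24 in D- (0.0232), and tracked the brightest probe set over the 8 group means (r = 0.973, a description). 1421866_at, which is dim, rose most at 2 h, by 2.25 ± 0.41 in WT (0.000291) and 1.64 ± 0.41 in D- (0.0057), and followed the brightest one loosely (r = 0.444). Its level went from 5.79 ± 0.59 (SD, n = 4) untreated to 8.04 ± 0.01 (n = 3) at 2 h in WT, then to 6.65 ± 0.65 at 6 h.

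Tsc22d3, the GILZ gene, was highest at 2 h and then receded, on its brightest probe set. Its untreated WT arrays read 9.48, 9.06, 8.76 and 9.59, and rose to 11.51, 11.24 and 11.69 at 2 h before easing to 10.77, 10.74 and 10.65 at 6 h and 9.81, 9.94 and 10.09 at 24 h. D- arrays went from 9.23, 9.43, 9.67 and 10.02 to 11.69, 11.81 and 11.95 at 2 h, 10.78, 11.03 and 11.32 at 6 h, and 10.08, 10.61 and 10.38 at 24 h. In both lines the groups did not overlap: each treated time lay above untreated, and each later time below the one before it. The 2 h rise was 2.26 ± 0.19 in WT (4.79-fold, adjusted p = 1.48e-08) and 2.23 ± 0.19 in D- (4.69-fold, 1.83e-08). By 6 h the change was 1.498 ± 0.19 in WT (3.62e-06) and 1.46 ± 0.19 in D- (7.45e-06), and by 24 h 0.73 ± 0.19 (0.00318) and 0.77 ± 0.19 (0.00362). The descent passed the test on this probe set and not on the next. From 2 to 6 h the level fell by 0.76 ± 0.21 in WT (adjusted p = 0.012, with 21.6% of genes called) and by 0.77 ± 0.21 in D- (0.00941, 23.6% called). From 6 to 24 h it fell by 0.77 ± 0.21 in WT (0.00673, 32.4% called) and by 0.69 ± 0.21 in D- (0.0285, 16.1% called).

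The probe set 1420772_a_at of Tsc22d3 was also called at all 3 times in both lines, with 1.61 ± 0.30 in WT and 1.80 ± 0.30 in D- at 2 h. Its later steps were not called: from 2 to 6 h it changed by -0.28 ± 0.32 in WT (adjusted p = 0.576) and by -0.51 ± 0.32 in D- (0.272), and from 6 to 24 h by -0.23 ± 0.32 (0.643) and by -0.19 ± 0.32 (0.764). 1425557_x_at, whose suffix marks probes shared with other transcripts, spanned only 0.44 over the 8 group means and was called in 2 of 6 comparisons, both in D-. With the mean of all probe sets in place of the brightest, the WT change at 2 h was 1.40 (adjusted p = 6.65e-06).

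Sgk1, which has a single probe set here, rose by 2 h and stayed up. WT arrays read 8.92, 7.45, 8.35 and 8.998 untreated, 10.32, 10.88 and 10.80 at 2 h, 10.53, 10.63 and 10.57 at 6 h, and 11.04, 10.62 and 11.02 at 24 h. D- arrays read 8.95, 8.04, 7.27 and 7.38 untreated, 11.01, 10.92 and 10.71 at 2 h, 11.13, 10.73 and 10.83 at 6 h, and 9.87, 10.65 and 10.61 at 24 h. The untreated arrays were spread widely, over more than 1 log2 unit in each line, but none reached the lowest treated array. Against untreated, the WT changes were 2.24 ± 0.34 at 2 h (4.71-fold, adjusted p = 3.84e-05), 2.15 ± 0.34 at 6 h (4.24e-05) and 2.46 ± 0.34 at 24 h (3e-06). In D- they were 2.97 ± 0.34 (7.83-fold, 1.08e-06), 2.99 ± 0.34 (1.06e-06) and 2.47 ± 0.34 (8.37e-06). No step between treated times was called in either line. The lowest D- array at 24 h, 9.87, belongs to the smaller cluster, within which the D- 24 h change, resting on this array alone, was 1.38.

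Txnip, the thioredoxin inhibitor, was the late riser. Untreated WT arrays stood at 9.44, 8.77, 10.20 and 9.85, with 9.72, 10.63 and 10.69 at 2 h, 9.76, 11.06 and 10.58 at 6 h, and 11.63, 12.68 and 12.38 at 24 h. In D- the values were 8.78, 8.19, 9.64 and 9.46 untreated, 9.31, 9.83 and 9.78 at 2 h, 9.37, 10.22 and 10.09 at 6 h, and 10.07, 11.96 and 11.66 at 24 h. The 2 and 6 h arrays overlapped the untreated ones in both lines, and only the 24 h arrays lay wholly above them. At 24 h Txnip was up by 2.67 ± 0.44 in WT (6.34-fold, adjusted p = 2.89e-05) and by 2.21 ± 0.44 in D- (4.64-fold, 0.000524). Earlier changes were not called: 0.78 ± 0.44 (0.225) and 0.90 ± 0.44 (0.124) in WT, 0.63 ± 0.44 (0.381) and 0.88 ± 0.44 (0.15) in D-. From 6 to 24 h it rose by 1.77 ± 0.48 in WT (0.0069), whereas the D- difference of 1.34 ± 0.48 did not pass (0.0626). The other probe set, 1415997_at, gave the same calls, with 2.32 ± 0.47 (0.000246) and 1.80 ± 0.47 (0.00474) at 24 h.

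Txnip was the gene of the 5 with the widest gap between the array clusters, with mean deviations of -0.59 ± 0.31 (SD, n = 10) and 0.37 ± 0.20 (n = 16). With the cluster as a block, the 6 h rise passed in WT (0.74 ± 0.20, adjusted p = 0.00452) and in D- (0.71 ± 0.20, 0.00679), as did the 2 h rise of WT (0.62 ± 0.20, 0.0195). The block was read from these same arrays, so these p-values are a description.

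**Figure D2:**
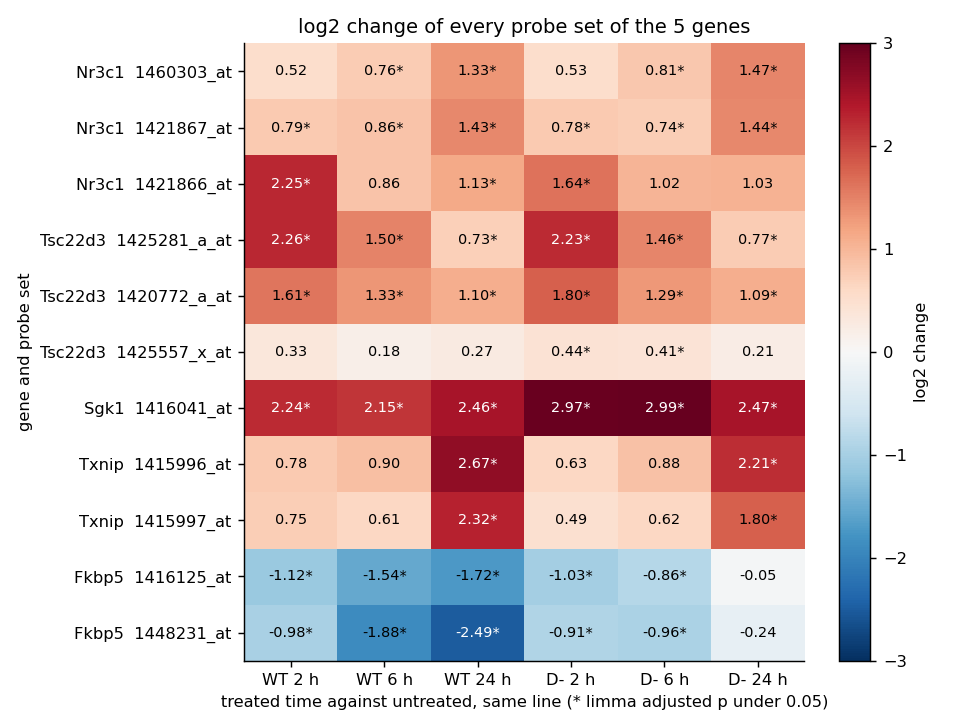
Log2 change of each of the 11 probe sets (rows) at each treated time against untreated in the same line (columns), with colour for sign and size and asterisks for limma adjusted p under 0.05. All Fkbp5 cells are negative and those of the other genes positive, and the Fkbp5 pair is uncalled in D- at 24 h, at -0.05 and -0.24.

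Fkbp5, the co-chaperone of the receptor, went the other way from the rest: it fell in both lines, stayed low in WT, and rose again in D- to overlap the untreated arrays at 24 h. WT arrays read 12.04, 12.00, 12.12 and 12.01 untreated, 11.09, 10.93 and 10.75 at 2 h, 11.10, 10.19 and 10.21 at 6 h, and 10.87, 9.88 and 10.24 at 24 h. D- arrays read 12.31, 12.26, 12.03 and 11.99 untreated, 11.31, 10.98 and 11.06 at 2 h, 11.35, 11.29 and 11.22 at 6 h, and 12.34, 11.91 and 12.04 at 24 h. In WT all treated arrays were below all untreated ones at each time, whereas in D- this held at 2 and 6 h and the 24 h arrays overlapped the untreated ones. The WT level was lower by 2.18-fold at 2 h (-1.12 ± 0.20, adjusted p = 0.000221), by 2.91-fold at 6 h (-1.54 ± 0.20, 3.79e-06) and by 3.28-fold at 24 h (-1.72 ± 0.20, 3.05e-07). In D- the fall was 2.04-fold at 2 h (-1.03 ± 0.20, 0.000581) and 1.81-fold at 6 h (-0.86 ± 0.20, 0.00226). At 24 h the D- difference from untreated was -0.05 ± 0.20 (adjusted p = 0.89), with a 95% interval of -0.47 to 0.37. The return was a called step on this probe set, with D- at 24 h above D- at 6 h by 0.81 ± 0.21 (0.0123), but not on the other one described next. WT changed by -0.17 ± 0.21 over the same interval (0.596).

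The second Fkbp5 probe set, 1448231_at, showed a larger fall. Its WT arrays went from 10.23, 9.84, 10.27 and 10.08 to 9.54, 8.996 and 8.84 at 2 h, 8.70, 8.11 and 7.86 at 6 h, and 8.50, 7.31 and 7.03 at 24 h. The D- arrays went from 10.87, 9.97, 10.17 and 10.10 to 9.57, 9.06 and 9.47, then 9.40, 9.18 and 9.40, and at 24 h to 10.49, 9.86 and 9.79. Every treated WT array was below every untreated one, as with the brightest probe set. At 24 h 2 of the 3 D- arrays lay just below the lowest untreated D- array, 9.97, and the third lay above 3 of the 4. The step up in D- from 6 to 24 h, 0.72 ± 0.31, was not called on this probe set (adjusted p = 0.127). The WT change at 24 h was -2.49 ± 0.29 (adjusted p = 2.8e-07) and the D- change -0.24 ± 0.29 (0.59). Over the 8 group means the pair of probe sets followed each other at r = 0.961. In WT at 6 and 24 h, replicate 1, of the smaller cluster, was the least reduced array on both probe sets. Within that cluster the WT 6 h change, resting on replicate 1 as the only treated array, was -0.92. Within the larger one it was -1.87 ± 0.12 (adjusted p = 4.62e-07).

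The lines were then compared directly, to ask where D- responds unlike WT. Before treatment, limma called 0 of the 5 genes different between D- and WT, and 0 had an unadjusted p under 0.05, where 5% of all genes were called. The untreated D- minus WT differences were 0.14 ± 0.22 for Nr3c1 (95% interval -0.31 to 0.59), 0.36 ± 0.18 for Tsc22d3 (-0.0089 to 0.74) and 0.10 ± 0.19 for Fkbp5 (-0.28 to 0.49). Sgk1 and Txnip were at -0.52 ± 0.32 (-1.18 to 0.14) and -0.55 ± 0.41 (-1.40 to 0.31). Within the larger cluster the untreated Sgk1 difference was -1.35 ± 0.18 (adjusted p = 0.000728), where its D- arrays read 7.27 and 7.38 and its WT arrays 8.35 and 8.998. The smaller cluster gave 0.31.

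The difference of response, D- minus WT, was called for Fkbp5 at 24 h and for no other of the 5 genes at any time. For Fkbp5 at 24 h it was 1.67 ± 0.28 (3.17-fold, 95% interval 1.08 to 2.25, adjusted p = 0.000414), and 2.25 ± 0.41 (0.00078) on the other probe set. In this comparison 1 of the 5 genes was called, against 12.3% of all genes (7.32% with the higher response in D- and 5% with the lower). At 6 h limma called 0 of the 5 genes (1 at an unadjusted p under 0.05, Fkbp5, with 0.592% of all genes called), and the Fkbp5 difference was 0.68 ± 0.28 (adjusted p = 0.624). At 2 h it called 0 of the 5 (0 at an unadjusted p under 0.05, with 0.242% of genes called), and the Fkbp5 difference was 0.09 ± 0.28 (0.999). Within the larger cluster the 6 h difference of Fkbp5 was 1.11 ± 0.17 (0.00621), and with array weights it was 0.93 ± 0.18 (0.00487). These were the 2 of 27 settings that called it, and the smaller cluster, with 1 array of each treated group, gave -0.013. The 24 h difference kept its call in 26 of 27 settings, the exception being the fit to the 10 arrays of the smaller cluster (1.21).

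**Figure D3:**
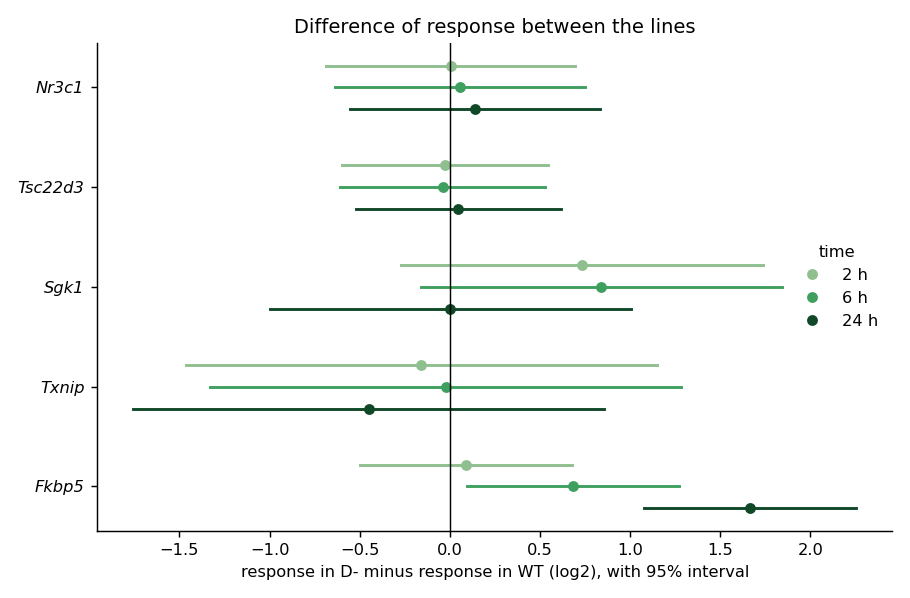
D- minus WT difference of the log2 change against untreated (horizontal axis) for each gene at 2, 6 and 24 h, with 95% intervals of the limma fit as bars. The interval of Fkbp5 at 24 h runs from 1.08 to 2.25, while those of Nr3c1, Tsc22d3, Sgk1 and Txnip at 24 h all include 0.

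For the other genes the interval shows how large a line difference remains possible. At 24 h it was -0.55 to 0.83 for Nr3c1 (difference 0.14), -0.52 to 0.62 for Tsc22d3 (0.05), -0.999 to 1.01 for Sgk1 (0.0035) and -1.76 to 0.86 for Txnip (-0.45). The Sgk1 difference was 0.73 ± 0.48 at 2 h (adjusted p = 0.999) and 0.84 ± 0.48 at 6 h (0.933). Within the larger cluster these differences were 1.32 ± 0.26 (0.0431) and 1.53 ± 0.26 (0.0104), and 1.16 ± 0.26 (0.00935) at 24 h. The smaller cluster gave 0.38, 0.30 and -1.47, with a single array of each treated group.

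Levels were compared as well. With both lines at the same time, limma called 0 of the 5 genes at 2 h (0 at an unadjusted p under 0.05, against 6.7% of all genes called), Fkbp5 alone at 6 h (D- above WT by 0.79 ± 0.21, adjusted p = 0.0273, against 7.32%) and Fkbp5 alone at 24 h (1.77 ± 0.21, 2.17e-06, against 30.3%). When the 8 groups were put in order of level, Nr3c1 ran WT untreated, D- untreated, WT 2 h, D- 2 h, WT 6 h, D- 6 h, WT 24 h and D- 24 h, from 11.31 to 12.92. No neighbouring pair in that order differed, nor did any for Tsc22d3, which ran from WT untreated (9.22) through the 24 h and 6 h groups to D- at 2 h (11.82). Txnip ran from D- untreated (9.02) to WT at 24 h (12.23), again with no called neighbours. The Fkbp5 order began with WT 24 h, 6 h and 2 h and D- 2 h and 6 h, between 10.33 and 11.29. WT untreated, D- 24 h and D- untreated followed, between 12.04 and 12.15. The only called neighbouring step, D- 6 h to WT untreated, was 0.76 ± 0.20 (adjusted p = 0.00559, 35.9% of genes called). Only neighbours were compared in this order, and groups further apart among the lower ones also differed, as D- 6 h and WT 6 h did above. For Sgk1 the untreated groups lay at 7.91 and 8.43 and the treated ones from 10.38 to 10.90. Its only called neighbouring step, WT untreated to D- 24 h, was 1.95 ± 0.34 (0.000136, 35.3% called).

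Set against each other over the 8 group means, which share the untreated groups and are given as a description, the genes followed different courses. Pearson r was 0.813 for Nr3c1 with Txnip, 0.244 for Nr3c1 with Tsc22d3 and -0.0133 for Tsc22d3 with Txnip. For Sgk1 it was 0.755 with Tsc22d3 and -0.723 with Fkbp5. Of 2905 genes whose group means spanned at least 1 log2 unit, those most like Nr3c1 by Pearson r over the 8 group means were Rhoh (0.976), Jak2 (0.972) and Dip2b (0.971). Closest to Tsc22d3 were Adam9 (0.982), Fos (0.974), the immediate early transcription factor, and Gosr1 (0.968). Tceal1 (0.986), Tex2 (0.984) and Ifngr1 (0.972) were most like Sgk1, and Phkb (0.978), Cd3e (0.976), a T cell receptor chain, and Ccpg1 (0.973) most like Txnip. Fkbp5 had Phf19 (0.955), Acot5 (0.95) and Gtf2h4 (0.949).

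Around the 5 genes, 7 lists of pathway genes were followed, 108 genes of which 76 were tested. The list of other glucocorticoid-responsive genes had more called genes higher than lower at each time in both lines. Of its 24 tested genes, 11 rose and 5 fell in WT at 2 h, 10 and 2 at 6 h, and 16 and 2 at 24 h, with medians of 0.58, 0.52 and 1.13. In D- 11 rose and 3 fell at 2 h, 12 and 2 at 6 h, and 12 and 1 at 24 h, with medians of 0.26, 0.53 and 0.73. Of all genes, 11.2%, 19.1% and 26.4% were called higher in WT and 13.9%, 19.1% and 27.5% lower, and in D- 9.05%, 16.2% and 17.1% higher and 13.2%, 15.6% and 17.6% lower. The list was drawn up with earlier results of these data known, so its direction is no independent evidence, and several of its genes are also textbook cAMP or immediate early genes. Rgs2, a regulator of G protein signalling, rose by 5.52 ± 0.33 in WT (adjusted p = 7.06e-11) and 5.89 ± 0.33 in D- (2.26e-11) at 2 h. Dusp1, a phosphatase that inactivates MAP kinases, rose by 4.22 ± 0.42 and 4.33 ± 0.42 at 2 h, and Zfp36, which destabilises inflammatory mRNAs, by 3.85 ± 0.21 and 3.86 ± 0.21. Foxo1, a transcription factor, was up by 2.45 ± 0.20 in WT and 2.11 ± 0.20 in D- at 24 h.

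A pair of that list differed in response between the lines at 24 h, both lower in D-, where 5% of all genes were called lower. Bcl2l11, which encodes the pro-death BH3 protein Bim, rose by 2.90 ± 0.22 in WT and 1.27 ± 0.22 in D- (difference -1.62 ± 0.31, adjusted p = 0.0012), and Tgfbr2, a TGF-beta receptor, by 2.46 ± 0.25 and 0.92 ± 0.25 (-1.54 ± 0.35, 0.00477). Before treatment 3 of the 24 genes were higher in D- (5% of all genes were called, in either direction), among them Btg2, an antiproliferative gene, by 1.34 ± 0.24 (0.00122).

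**Figure D4:**
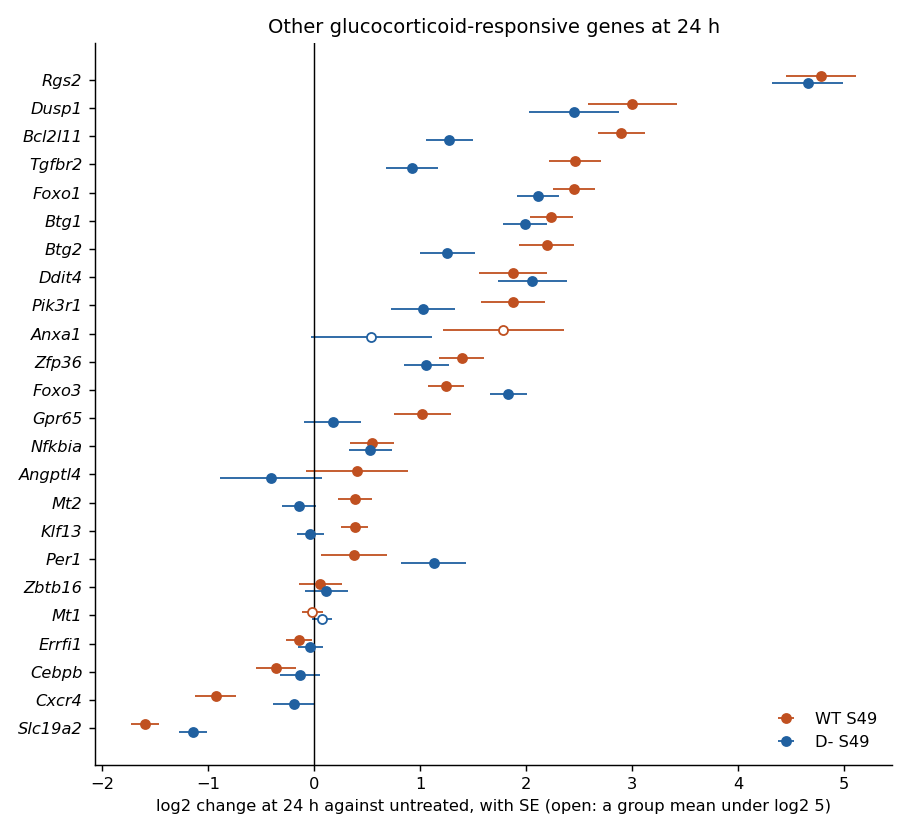
Log2 change at 24 h against untreated, with standard errors, for the 24 tested genes of the list of other glucocorticoid-responsive genes in WT (orange) and D- (blue). Most points lie right of 0, and Bcl2l11 and Tgfbr2 show the widest gaps that passed the test between the lines; open points have a group mean under log2 5.

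Of the receptor's chaperone genes 11 were tested, and their called falls came after 2 h. At 2 h, when Fkbp5 was already down, 2 rose in WT and 3 in D-, where 11.2% and 9.05% of all genes were called higher. At 6 h 3 rose and 5 fell in WT, with 19.1% of all genes called lower, and 3 rose and 1 fell in D-, with 15.6%. At 24 h 1 rose and 7 fell in WT (median -0.63, with 27.5% of all genes called lower), and 2 rose and 4 fell in D- (median -0.26, with 17.6%). Fkbp4, the co-chaperone FKBP52 that competes with FKBP51, fell by 1.90 ± 0.14 in WT (adjusted p = 8.13e-10) and by 1.18 ± 0.14 in D- (1.63e-06). Stip1, the adaptor between Hsp70 and Hsp90, fell by 1.36 ± 0.12 in WT and by 0.43 ± 0.12 in D-. Ahsa1, which activates the Hsp90 ATPase, fell by 1.55 ± 0.14 and by 0.91 ± 0.14, and Hsp90aa1 itself by 0.98 ± 0.11 and by 0.51 ± 0.11. The difference of response at 24 h was called for 4 of the 11, all higher in D-, against 7.32% of all genes: Stip1 (0.93 ± 0.17), Fkbp4 (0.72 ± 0.20), Ahsa1 (0.64 ± 0.20) and Dnajb1 (0.61 ± 0.16). Unlike Fkbp5, Fkbp4 was uncalled at 2 h in both lines, at -0.25 ± 0.14 and 0.04 ± 0.14. Dnaja1, an Hsp40 gene, rose at every time in both lines, by 0.53 to 0.86.

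Among 16 coregulators, 5 rose in WT at 2 h and 3 in D-, with 1 falling in D-, where 11.2% and 9.05% of all genes were called higher. Ncoa3, a steroid receptor coactivator, rose by 1.80 ± 0.18 in WT (adjusted p = 1.1e-07) and 1.42 ± 0.18 in D- (3e-06), and Med14, the Mediator subunit, by 1.73 ± 0.28 and 1.47 ± 0.28. Nrip1, a corepressor, rose by 1.04 ± 0.30 and 1.98 ± 0.30. At 24 h 4 rose and 5 fell in WT, near the shares of all genes (26.4% higher, 27.5% lower), and 2 rose and 2 fell in D- (17.1% and 17.6%). The falling genes include the arginine methyltransferases Carm1 (-1.25 ± 0.13 and -1.40 ± 0.13) and Prmt1 (-1.44 ± 0.18 and -0.82 ± 0.18). Of 6 genes for ligand handling and transport, the drug exporters Abcb1a and Abcb1b, which also pump glucocorticoids out of cells, rose at every time. Abcb1a was up by 3.39 ± 0.19 in WT and 3.55 ± 0.19 in D- at 2 h, and by 4.42 ± 0.19 and 2.39 ± 0.19 at 24 h. The smaller 24 h rise in D- was called for Abcb1a (-2.03 ± 0.27, adjusted p = 4.51e-05) and for Abcb1b (-1.50 ± 0.35, 0.00669).

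Relatives and partners of the single targets moved as follows. Tsc22d1, the founding gene of the Tsc22d3 family, was higher in untreated D- than in untreated WT by 2.19 ± 0.34 (adjusted p = 0.00025), and Tsc22d4 rose at 24 h in both lines, by 0.60 ± 0.12 in WT and 1.12 ± 0.12 in D-. Of 8 SGK activators and substrates, Gsk3b, a kinase that Sgk1 can phosphorylate, rose at 2 h by 2.35 ± 0.19 in WT and 2.48 ± 0.19 in D-. Ndrg1, an Sgk1 substrate, rose by 1.96 ± 0.60 and 2.87 ± 0.60 at 2 h, and Nedd4l, the ubiquitin ligase that Sgk1 inhibits, fell at each time in both lines, by between 0.44 and 0.92. Of 9 TXNIP partners, 5 fell at 24 h in each line, while 2 rose in WT and 1 in D-, beside 27.5% of all genes called lower in WT and 17.6% in D-. Those that fell include thioredoxin and its reductase: Txn1 (-0.63 ± 0.08 in WT and -0.62 ± 0.08 in D-) and Txnrd1 (-1.12 ± 0.09 and -1.03 ± 0.09). Slc2a3, a glucose transporter, rose by 3.10 ± 0.31 and 2.42 ± 0.31.

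Cell type markers moved with time as well. The summed level of the 8 T cell markers was 14.4 to 14.7 on untreated WT arrays, 13.8 to 14.0 at 2 h, 13.8 to 14.1 at 6 h and 14.6 to 14.8 at 24 h. In D- it was 14.7 to 14.8, 13.5 to 13.8, 13.6 to 13.8 and 14.8 to 14.9. It was thus lowest at 2 and 6 h, when Tsc22d3 was highest and Fkbp5 was low in both lines, and the part of this in the results was not tested. The summed level of the stromal markers was that of Vim, as the other 4 lay under log2 5 on all 26 arrays. It was 11.6 to 13.2 in untreated WT, 12.5 to 13.6 at 2 h, 13.7 to 14.1 at 6 h and 13.3 to 13.8 at 24 h. In D- it was 11.1 to 12.6, 12.0 to 13.4, 13.9 to 14.6 and 12.3 to 12.9. Vim was thus highest at 6 h in both lines, and its part in the 6 h results was not tested. Sums for B cell (6.12 to 6.98), myeloid (6.74 to 7.94) and erythroid (5.50 to 6.09) markers stayed low on all 26 arrays.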

How the data were processed

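Total RNA of each sample was hybridised to 1 single-colour Affymetrix array. The authors summarised probe sets with GCRMA, per the submitters' processing notes, and the deposited intensity values are linear, from 2 to 83530.7. Neither the GCRMA version nor whether both lines were normalized together is given in the sources used here. GCRMA as usually run equalises the arrays, which hides any shift common to most probe sets. Log2 of the deposited intensity was taken with no pseudocount. Of 22690 probe sets, 64 controls were left out. Testing was limited to the 12724 that reached log2 5 (intensity 32) on 3 or more arrays, and the brightest stood for each of 7435 genes.

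One model of 8 group means (R 4.3.3, limma 3.58.1 with lmFit and eBayes) took in all 26 arrays, with 18 residual and 3.34 prior degrees of freedom, and the Benjamini-Hochberg adjustment was made separately in each of 31 contrasts (28 pairs of groups, 3 differences of response) over all probe sets. The fit was tested on simulated data with independent arrays. Those data held no array clusters, so the test does not cover that structure. The number of arrays limits the precision.

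The 5 genes, the 7 lists and the rule for naming genes were chosen with earlier results of these data known. The rule names the 5 genes, up to 4 called genes of each list with the largest change in a contrast, and the 3 genes most like each of the 5. The 2 array clusters were read from the sign of each array on the main axis of its deviations from its group's mean, and the labels name no such split. Fits that use the clusters therefore rest on a grouping taken from these same arrays. Alternatives were quantile normalization, median centring, trend and robust moderation, a fit to the compared groups alone, array weights, a filter at log2 7 or none, the mean of a gene's probe sets, log2 of intensity plus 16, the replicate number or the cluster as a block, fits within each cluster, and each array left out. Promoter windows and names are RefSeq's. The receptor gene's own window is not analysed here. Python 3.11.15 with numpy 2.4.6 and matplotlib 3.10.9 drew the figures.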

Additional observations from a re-analysis of the deposited data

Results flagged for a closer look

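The response of Fkbp5 to 8-CPT-cAMP differed between the lines at 24 h by a test of the difference itself. D- minus WT was 1.67 ± 0.28 (log2, adjusted p = 0.000414 in limma) on probe set 1416125_at, with every WT array at 24 h below every D- array at 24 h. On probe set 1448231_at it was 2.25 ± 0.41 (adjusted p = 0.00078). In the 22 untreated groups of 4 arrays that were looked at (11 probe sets in each line), 0 had an array far from the others by Dixon's rule.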

How the results depend on the processing

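The 24 called values of single genes kept their direction in all settings run and with any array left out. Outside the fits within a cluster and those with an array left out, all 264 of their values kept the call. Of the fits within a cluster, only those of the smaller one, with 1 array of each treated group, lost calls. With 1 array left out, 4 of 175 values lost the call, all of Nr3c1 at 6 h. Numbers of the 5 genes called moved in several settings, and the moves given here are not all of them. Txnip at 6 h was called in both lines with array weights, with either block and within the larger cluster. Nr3c1 at 2 h was called in both lines with array weights and with the mean of a gene's probe sets, among other settings. Shares of all genes called were taken for the main fit alone. The counts below are therefore not read as results about the 5 genes. For WT at 2 h the number was 5 with the cluster block and 5 within the larger cluster. Within the smaller cluster, with 1 array of each treated group, it was lower at each time in both lines. It was also lower there for the 24 h difference of response. Within the larger cluster it was 2 for untreated D- against WT, and 1, 2 and 2 for the difference of response at 2, 6 and 24 h, and with array weights it was 1 at 6 h. With 1 array left out it ranged from 3 to 3, 3 to 4 and 5 to 5 in WT and from 3 to 4, 3 to 4 and 4 to 4 in D- (2, 6 and 24 h). It was 0 to 0 for untreated D- against WT and 0 to 0, 0 to 0 and 1 to 1 for the differences of response. The labels give no shared culture or day for a replicate number. Of 85 same-numbered pairs, 68 correlated above 0.1 in their deviations (range -0.468 to 0.655). Same-numbered arrays may thus share structure, and the number goes in part with the array clusters. The main fit did not take the number as a pairing and leaves such structure out. With it as a block, Nr3c1 at 2 h passed in WT (0.60, adjusted p = 0.000893) and in D- (0.61, 0.000956), as did Txnip at 6 h (1.02 and 0.998), and no call was lost. For 8 of 26 arrays the mean correlation with arrays of other groups was highest for their own number. Uncalled values turned sign in several settings; the cause was not tested. With array weights these were the differences of response of Nr3c1 at 2 h (-0.0546) and Tsc22d3 at 2, 6 and 24 h (0.0113, 0.0260 and -0.0197), and with median centring Tsc22d3 at 2 h (0.0104). With the mean of a gene's probe sets they were Nr3c1 at 2 h (-0.21) and Tsc22d3 (0.0909, 0.0473 and -0.0051). Sgk1 at 24 h gave -0.0490 with quantile normalization and -0.0206 with log2 of intensity plus 16. Fkbp5 in D- at 24 h against untreated gave 0.00707 with the cluster block and 0.0546 within the smaller cluster, where untreated D- against WT gave -0.14 for Nr3c1 and 0.31 for Sgk1. In that cluster the differences of response were 0.12 for Tsc22d3, -0.0464 for Fkbp5 and 0.21 for Txnip at 2 h, -0.0130 for Fkbp5 and 0.24 for Txnip at 6 h, and -1.47 for Sgk1 at 24 h. Within the larger cluster untreated D- against WT was -0.0578 for Fkbp5, and the differences of response were -0.21, -0.15 and -0.0689 for Nr3c1 and -0.19 for Tsc22d3 at 24 h. Leaving out 1 array gave -0.17 to 0.0425 for Fkbp5 in D- at 24 h, and, for the differences of response at 2, 6 and 24 h, -0.18 to 0.24, -0.13 to 0.27 and -0.0406 to 0.37 for Nr3c1. The same ranges were -0.15 to 0.13, -0.18 to 0.11 and -0.0804 to 0.20 for Tsc22d3, and -0.47 to 0.11, -0.38 to 0.27 and -0.81 to 0.13 for Txnip. For Sgk1 at 24 h the range was -0.21 to 0.35, and for Fkbp5 at 2 h -0.0058 to 0.18. Values near log2 5 rest on GCRMA's background, which limits 1421866_at of Nr3c1.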

Other observations

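Outside the 5 genes, some partners responded differently in the lines at 24 h by the limma test of the difference. Tsc22d1, of the Tsc22d3 family, rose by 1.03 ± 0.37 in WT and had a change of -0.90 ± 0.37 in D- that was not called (adjusted p = 0.0645), a difference of response of -1.93 ± 0.52 (0.0167). Gsk3b, which peaked at 2 h in both lines, was at -0.23 ± 0.19 in WT at 24 h, not called, and still up by 0.88 ± 0.19 in D- (difference 1.11 ± 0.27). Hdac2, a histone deacetylase found in corepressor complexes, fell by 0.96 ± 0.15 in WT and changed by -0.17 ± 0.15 in D-, not called (difference 0.79 ± 0.21). Mlxip, a glucose-sensing transcription factor tied to Txnip, rose by 0.80 ± 0.16 in WT with -0.01 ± 0.16 in D- (difference -0.82 ± 0.22). Against the direction of its list, the thiamine transporter gene Slc19a2 fell in both lines at 24 h, by 1.59 ± 0.13 in WT and by 1.14 ± 0.13 in D-, and untreated D- stood above untreated WT by 0.62 ± 0.12.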
